A study of Mus musculus and Rattus norvegicus with 12 samples.

Results

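Cadherins and the transcription factors of epithelial-mesenchymal transition (EMT) were described by 10 genes, Cdh1, Cdh2, Cdh3, Cdh11, Epcam, Vim, Snai1, Snai2, Zeb1 and Zeb2. They were taken by symbol from the count tables, where all 10 had a row among 24411 mouse rows and among 17315 rat rows. In mouse, 9 of the 10 were among the 10895 genes that passed the filter on low counts, and Snai2 did not pass.

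RNA from 12 separately derived cell lines was sequenced after 2 days in the maintenance medium of each cell type, so the spread within a group is the spread between lines. The mouse lines came from blastocysts of the ICR strain: pXEN2 (male), pXEN4 and pXEN6 (female), XEN1 (female), XEN2 and XEN5 (male), and the embryonic stem (ES) lines ES2 (male) and ES3 (female). XEN lines represent the extraembryonic endoderm, the tissue that lines the blastocyst cavity and forms the yolk sac endoderm. The pXEN lines were kept in the culture used for the rat XENP lines, while XEN lines grew in serum on a layer of mouse embryo fibroblasts and ES cells received serum, LIF and '2i'. Cell type and culture therefore cannot be told apart in any mouse comparison. The pXEN lines were at passages 17 to 21, the XEN lines at 9 to 21 and the ES lines at 14 to 16. The rat XENP lines were CX1 (WKY, male, passages 38 to 40), MAX8 (WKY, female, 11 to 12), MAX2 (F344, female, 16 to 17) and MAX3 (F344, male, 10 to 11). No transgene or gene deletion is given in the labels for any line.

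Cadherins hold cells together by binding the same cadherin on the neighbouring cell, with catenins linking them to actin inside. In EMT, zinc finger repressors of the Snail family (Snai1, Snai2) and the Zeb family (Zeb1, Zeb2) bind E-box sequences and silence Cdh1, while Cdh2, Cdh11 and the intermediate filament Vim often rise. Parietal endoderm, the migratory derivative of primitive endoderm, arises through such a transition in the embryo, and parathyroid hormone-related peptide acting on Pth1r is known to promote it.

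Each mouse line had 2661691 to 3483069 counts in genes, and each rat line 1047535 to 1242937. Levels are CPM, that is counts scaled to the size of the library, in mouse after TMM scaling and in rat from all gene counts. Rat and mouse CPM cannot be set side by side, because the row of Rn45s, a ribosomal RNA precursor, held 20.7% to 50.1% of the mouse counts and 0.00821% to 0.0312% of the rat counts. In sum, 11 endoderm markers reached 9400 to 11403 CPM in pXEN lines, 7534 to 16747 in XEN lines and 80.0 to 126 in ES lines. Of 8 defining fibroblast markers, all 8 had counts in every XEN line, with a summed level of 122 to 172 CPM. In pXEN 1 to 2 of the 8 had counts (3.28 to 7.73 CPM, with Thy1, Col1a2, Col3a1, Dcn, Lum and Postn at 0 in all 3 lines and only Pdgfrb and Col1a1 detected), and in ES 3 of the 8 (5.83 to 7.38 CPM). Fewer cells of a type and less RNA per cell cannot be told apart in such bulk samples.

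Promoter sequences were at hand for 4 of the 10 genes (Epcam, Vim, Snai1 and Zeb2, RefSeq, GRCm38.p6). The letters CACCTG, or CAGGTG on the other strand, are the E-box read by Snail and Zeb proteins. They were looked for in the 250 bases before each start site. The windows of Snai1 and Epcam are shown because they hold the motif. Snai1 rose in both endoderm groups, as did Vim, and the epithelial gene Epcam was called in neither. E-boxes are in capitals, and both sequences read 5′ to 3′ along the plus strand, Snai1 at chr2:167537945-167538194 and Epcam at chr17:87635729-87635978.
Snai1: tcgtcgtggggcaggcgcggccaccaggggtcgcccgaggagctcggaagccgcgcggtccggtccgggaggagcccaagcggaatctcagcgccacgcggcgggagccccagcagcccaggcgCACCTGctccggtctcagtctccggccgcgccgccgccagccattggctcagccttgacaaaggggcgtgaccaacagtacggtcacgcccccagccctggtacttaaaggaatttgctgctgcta
Epcam: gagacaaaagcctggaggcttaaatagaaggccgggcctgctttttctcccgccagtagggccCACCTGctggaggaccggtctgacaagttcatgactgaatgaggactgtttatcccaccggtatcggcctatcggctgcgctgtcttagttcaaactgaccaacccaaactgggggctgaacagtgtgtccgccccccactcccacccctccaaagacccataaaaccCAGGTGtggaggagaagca
Snai1 had 1 E-box, beginning at position -126 from its start site, and Epcam had 2, at -187 and -19. The Vim window and the 4 Zeb2 windows held none. Across 32851 promoter windows of that length, 17.2% held at least 1 E-box and 2.06% held 2 or more, so a match in a single window is common and is given as a description only.

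**Figure D1:**
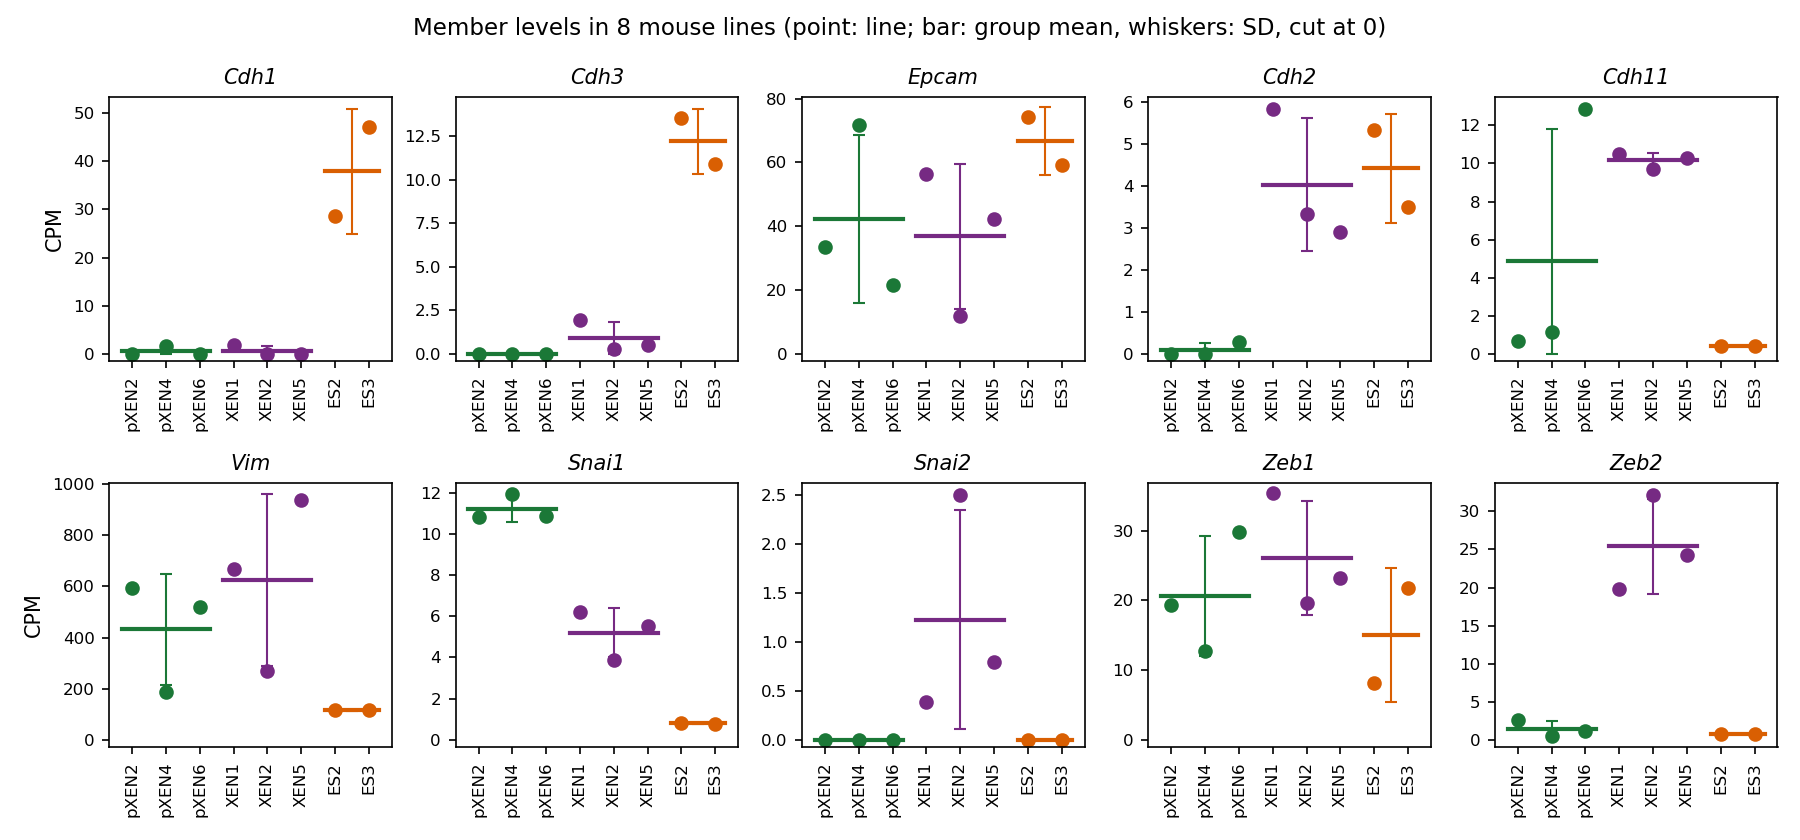
Levels of the 10 genes in the 8 mouse lines, in CPM on a linear axis that differs between panels. Each point is a line, the bar is the group mean and the whiskers are the SD (n = 3, 3 and 2). Cdh1 and Cdh3 are high in ES alone, Snai1 separates all 3 groups, and Zeb2 is high in XEN.

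The comparisons with ES cells asked which junction genes and EMT regulators differed between endoderm lines and pluripotent lines. Cdh1 and Cdh3 fell in both pXEN and XEN, Snai1 and Vim rose in both, and Epcam and Zeb1 were called in neither. Cdh2 fell in pXEN, while Cdh11 and Zeb2 rose in XEN. In pXEN against ES, 5 of the 9 genes tested were called, 2 higher and 3 lower, where 35.9% of all genes were called (18.1% higher and 17.8% lower). In XEN against ES, 6 of 9 were called, 4 higher and 2 lower, where 38.4% of all genes were called (20.7% higher and 17.8% lower). Lines of both groups did not overlap for 6 of the 9 genes in the first comparison and 7 of the 9 in the second, against 62.8% and 63.3% of all genes tested. The same ES lines served both comparisons.

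Cdh1 encodes E-cadherin, the main cadherin of epithelia and of ES cell colonies (chromosome 8, 106603351 to 106670246, plus strand, GRCm38). Its level was 28.7 CPM in ES2 and 47.0 in ES3, 0 in pXEN2, 1.70 in pXEN4, 0 in pXEN6, 1.94 in XEN1, and 0 in XEN2 and XEN5. Both ES lines lay above every endoderm line, and the 6 pXEN reads and 5 XEN reads each came from a single line. Cdh1 was 60.2-fold lower in pXEN than in ES (log2 fold change -5.91, SE 1.08, adjusted p = 0.00277, edgeR's quasi-likelihood test, Benjamini-Hochberg over all genes tested) and 67.1-fold lower in XEN (-6.07, SE 1.11, adjusted p = 0.00290). DESeq2 called neither difference (adjusted p = 0.116 and 0.119). The size rests on 1 line in each group: without pXEN4 or without XEN1 the group had 0 reads, and the fitted log2 fold changes moved to -9.87 and -9.94, which are no bounds. With any 1 line left out they ran from -9.87 to -5.34 for pXEN and from -9.94 to -5.41 for XEN.

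Cdh3, which encodes P-cadherin, lies beside Cdh1 (chromosome 8, 106510891 to 106557297, plus strand), with 46053 bases between them. It stood at 13.5 CPM in ES2, 10.9 in ES3, 0 in all 3 pXEN lines, 1.94 in XEN1, 0.277 in XEN2 and 0.527 in XEN5. The ES lines again lay above every endoderm line. Cdh3 was lower in pXEN than in ES (adjusted p = 0.000565), on 0 reads against 61. The ES level was 41.0 times that of 3 reads over the pXEN group, and the exact 95% counting interval of the ratio begins at 32.2. In XEN, Cdh3 was 13.9-fold lower than in ES (log2 fold change -3.80, SE 0.74, adjusted p = 0.00372; -4.78 without XEN1).

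Epcam encodes a surface adhesion protein of epithelial and pluripotent cells (chromosome 17, 87635979 to 87651129, plus strand). It read 33.5, 71.8 and 21.5 CPM in pXEN2, pXEN4 and pXEN6, 56.3, 11.9 and 42.2 in XEN1, XEN2 and XEN5, and 74.2 and 59.1 in ES2 and ES3. The pXEN and ES ranges overlapped, because pXEN4 lay between the ES lines, whereas all XEN lines lay below both. Neither difference was called (log2 fold change -0.66, SE 0.63, adjusted p = 0.454 for pXEN; -0.87, SE 0.64, adjusted p = 0.316 for XEN).

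Snai1, the Snail repressor of Cdh1 (chromosome 2, 167538195 to 167542814, plus strand; its promoter window with 1 E-box is printed above), varied little among the pXEN lines. Its level was 10.8, 11.9 and 10.9 CPM in pXEN2, pXEN4 and pXEN6, 6.22, 3.88 and 5.53 in XEN1, XEN2 and XEN5, and 0.820 and 0.777 in ES2 and ES3. The 3 groups did not overlap. Snai1 was 13.4-fold higher in pXEN than in ES (3.75 on the log2 scale, SE 0.55, adjusted p = 0.000421) and 6.23-fold higher in XEN (2.64, SE 0.57, adjusted p = 0.00410), on 2 reads in each ES line. Both calls held when any 1 line was left out, with adjusted p up to 0.00655 for pXEN and 0.0334 for XEN.

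Vim, the intermediate filament protein of mesenchymal cells and a marker of parietal endoderm (chromosome 2, 13573927 to 13582826, plus strand), had the highest level per kilobase of exon of the 10 in both endoderm groups. It read 592, 187 and 518 CPM in pXEN2, pXEN4 and pXEN6, 669, 268 and 938 in XEN1, XEN2 and XEN5, and 117 and 115 in ES2 and ES3. All endoderm lines lay above both ES lines. Against ES, Vim rose 3.72-fold in pXEN (1.89 on the log2 scale, SE 0.61, adjusted p = 0.0421) and 5.38-fold in XEN (2.43, SE 0.63, adjusted p = 0.0169). The pXEN call was lost with upper-quartile scaling (adjusted p = 0.0537), with no filter on low counts (0.100), with sex as a term (0.0703), and without pXEN2 (0.0930), pXEN6 (0.0881), ES2 (0.192) or ES3 (0.182). The XEN call was lost with no filter (0.0516) and without ES2 (0.116) or ES3 (0.108).

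Cdh2 encodes N-cadherin, the cadherin of neural and many mesenchymal cells (chromosome 18, 16588877 to 16809246, minus strand). It gave 5.33 CPM in ES2 and 3.50 in ES3, 5.83, 3.33 and 2.90 in XEN1, XEN2 and XEN5, 0 in pXEN2 and pXEN4, and 0.286 in pXEN6. XEN and ES lines overlapped, and the pXEN lines, with 1 read in all, lay below both groups. Cdh2 fell in pXEN against ES (adjusted p = 0.00201), and the ratio of ES to pXEN counts was 44.2 with an exact 95% counting interval of 7.14 to 1823. Without pXEN6, which held that read, the call held (adjusted p = 0.00407). The XEN difference was not called (log2 fold change -0.15, SE 0.64, adjusted p = 0.867).

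Cdh11 encodes a cadherin of mesenchyme and bone-forming cells (chromosome 8, 102632095 to 102785642, minus strand). Its level was 10.5, 9.70 and 10.3 CPM in XEN1, XEN2 and XEN5, 0.410 and 0.389 in ES2 and ES3 (1 read each), and 0.656, 1.14 and 12.9 in pXEN2, pXEN4 and pXEN6. All XEN lines were high, while pXEN6 alone held 45 of the 51 pXEN reads. Cdh11 rose in XEN against ES (adjusted p = 0.0275; count ratio 25.4, interval 6.84 to 212), a call lost without XEN1 (adjusted p = 0.0552), ES2 (0.153) or ES3 (0.148). The pXEN difference was not called (log2 fold change 3.50, SE 1.44, adjusted p = 0.0852), where DESeq2 called it (0.0353), as did edgeR without pXEN2 (0.0285) or pXEN4 (0.0371).

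Zeb2, a Zeb family repressor (chromosome 2, 44983632 to 45117395, minus strand), stood apart in XEN. Its level was 19.8, 32.2 and 24.2 CPM in XEN1, XEN2 and XEN5, 2.62, 0.568 and 1.14 in pXEN2, pXEN4 and pXEN6, and 0.820 and 0.777 in ES2 and ES3. XEN lines lay above all others, and the pXEN and ES ranges overlapped. Zeb2 was 30.4-fold higher in XEN than in ES (log2 fold change 4.93, SE 0.63, adjusted p = 0.000192), and the pXEN difference was not called (0.79, SE 0.77, adjusted p = 0.446). The 8 defining fibroblast markers were likewise high in XEN alone (122 to 172 CPM in sum), and their part in the Zeb2 level was not tested.

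Zeb1, its paralog (chromosome 18, 5591860 to 5775467, plus strand), was found in every line. It read 19.4, 12.8 and 29.8 CPM in pXEN2, pXEN4 and pXEN6, 35.4, 19.7 and 23.2 in XEN1, XEN2 and XEN5, and 8.20 and 21.8 in ES2 and ES3. All groups overlapped, and Zeb1 was not called for pXEN lines (log2 fold change 0.46, SE 0.48, adjusted p = 0.484) or for XEN lines (0.79, SE 0.48, adjusted p = 0.218).

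Snai2, the Slug repressor (chromosome 16, 14705852 to 14709385, plus strand), had reads in XEN lines only among the mouse lines: 0.389 CPM in XEN1, 2.495 in XEN2 and 0.790 in XEN5, or 13 reads in all. It had 0 reads in pXEN, which allows up to 0.298 CPM over the group, and 0 in ES, which allows up to 0.599. With no filter on low counts Snai2 was not called (adjusted p = 0.0788 for XEN against ES and 0.101 for pXEN against XEN).

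**Figure D2:**
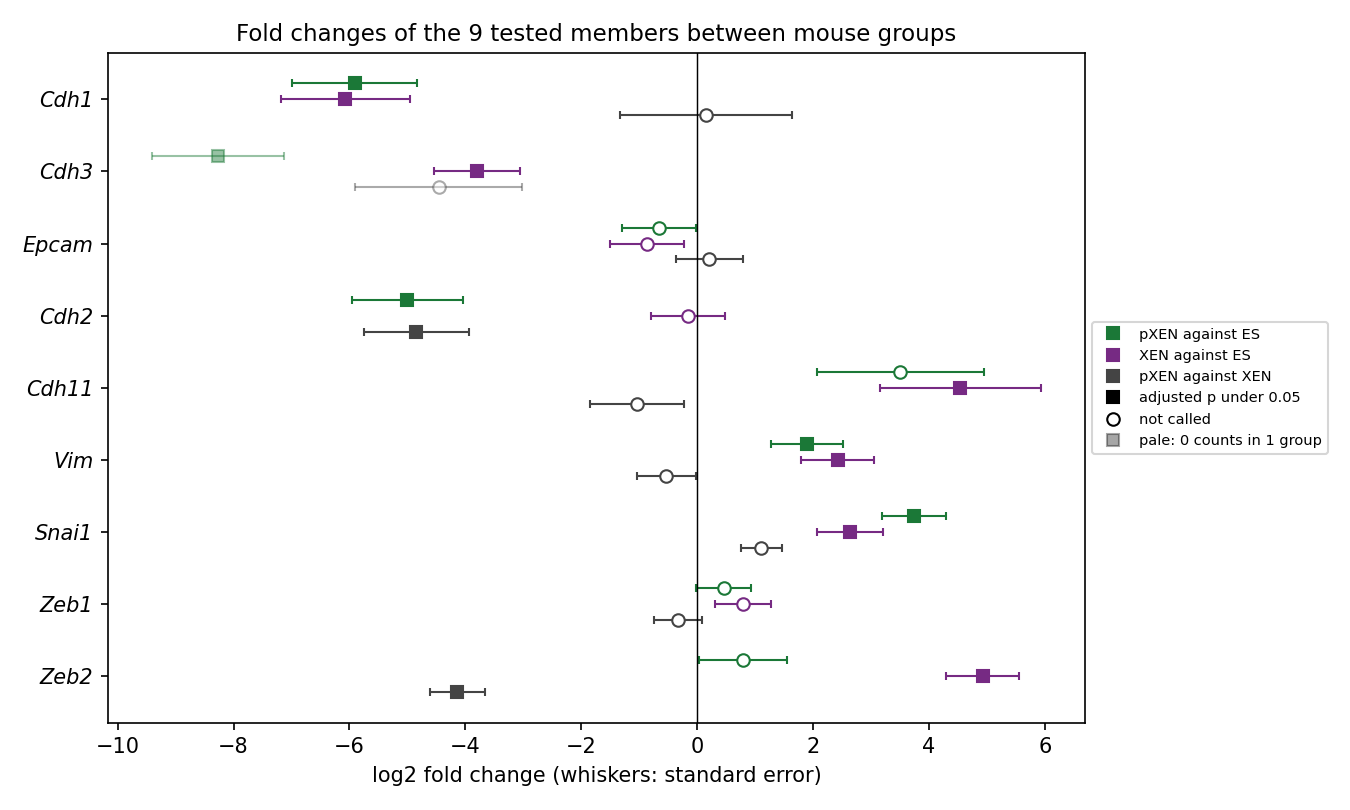
Log2 fold changes of the 9 genes tested in the 3 mouse comparisons, with whiskers of 1 standard error. Filled squares passed an adjusted p of 0.05, open circles did not, and pale symbols mark fitted values with 0 counts in a group. Snai1 and Vim lie right of 0 and Cdh1 and Cdh3 left of 0 in both comparisons with ES, and Zeb2 and Cdh2 are the filled symbols of pXEN against XEN.

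Between the endoderm groups, Cdh2 and Zeb2 were lower in pXEN than in XEN and no other gene of the 10 was called. These 2 of 9 tested (0 higher, 2 lower) compare with 4.55% of all genes called (0.918% higher and 3.63% lower). The lines did not overlap for 4 of the 9, against 19.8% of all genes. Zeb2 was 17.6-fold lower in pXEN (1.45 ± 1.06 CPM against 25.4 ± 6.25, SD, n = 3 each; log2 fold change -4.14, SE 0.47, adjusted p = 0.000682; -4.83 without pXEN2). Cdh2 was lower on 1 pXEN read against 38 XEN reads (adjusted p = 0.0101; XEN to pXEN count ratio 38.3, exact 95% interval 6.48 to 1554; adjusted p = 0.0221 without pXEN6, which held the read).

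Snai1 went the other way in level, at 11.2 ± 0.621 CPM in pXEN and 5.21 ± 1.20 in XEN without overlap, but the 2.16-fold difference was not called (log2 fold change 1.11, SE 0.36, adjusted p = 0.132). Cdh3 had 0 reads in pXEN and 8 in XEN and was not called (adjusted p = 0.149; the exact 95% interval of the XEN to pXEN count ratio begins at 1.72). Vim (log2 fold change -0.53, SE 0.51, adjusted p = 0.722), Zeb1 (-0.33, SE 0.41, adjusted p = 0.801) and Epcam (0.21, SE 0.58, adjusted p = 0.939) overlapped between the groups. Cdh1 had 6 reads against 5 (adjusted p = 0.994). Cdh11 was not called with all lines (-1.03, SE 0.81, adjusted p = 0.648) and was called lower without pXEN6 (-3.43, adjusted p = 0.0106).

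**Figure D3:**
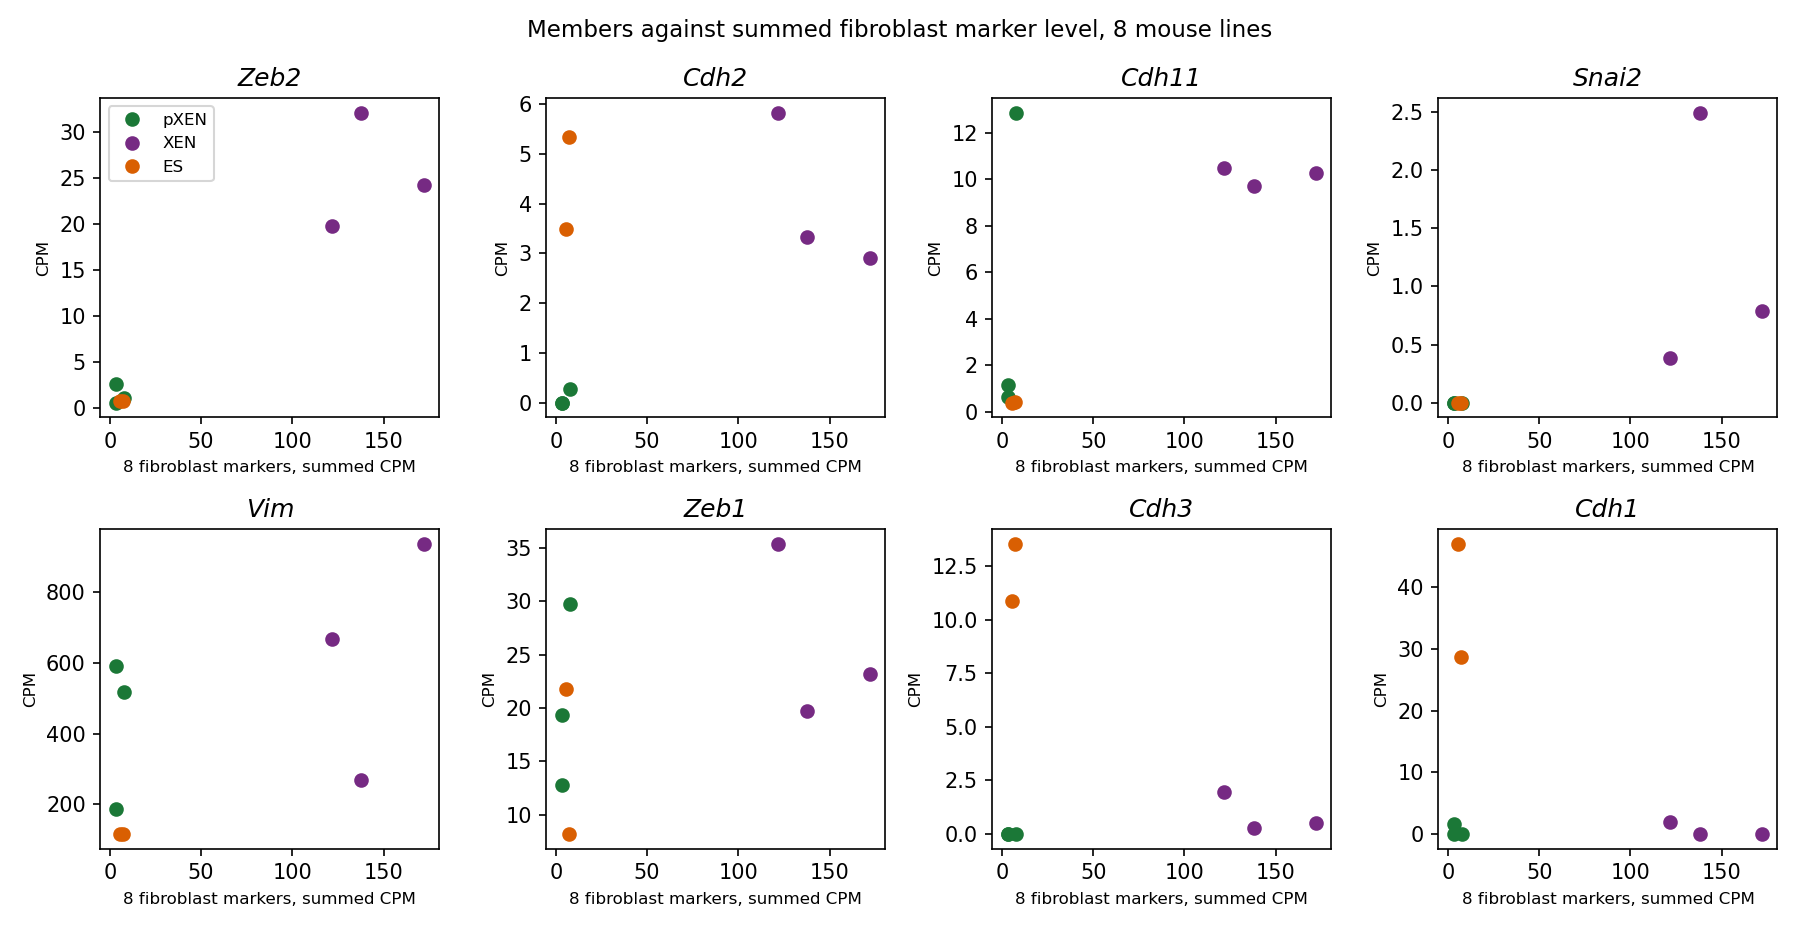
Levels (CPM) of 8 genes in the 8 mouse lines against the summed CPM of 8 defining fibroblast markers. The genes were those with a higher mean in XEN than in pXEN, so higher XEN points were set by this choice. Snai1 and Epcam, with higher means in pXEN, are not shown. Each point is a line, coloured by group. XEN lines lie at 122 to 172 CPM on the marker axis and all other lines under 8, where pXEN6 (7.73) is the highest of the pXEN lines.

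XEN lines had been grown on fibroblasts, and the full list of 21 fibroblast markers summed to 286 to 376 CPM there (19 of 21 with counts), 8.86 to 15.6 in pXEN and 15.2 to 17.2 in ES. In pXEN against XEN, 15 of its 16 tested genes were lower, where 3.63% of all genes were. Col1a2, Col3a1 and Prrx1 among them had 0 counts in pXEN and ES and passed the filter on low counts through XEN alone. For such genes a lower level in pXEN was set by the filter, so the count is a description only. Zeb2, Cdh2, Cdh11, Snai2, Vim, Zeb1, Cdh3 and Cdh1 had higher mean levels in XEN than in pXEN, and the part of fibroblast RNA in them was not tested. For Cdh1 the means (0.648 CPM in XEN, 0.568 in pXEN) rested on 5 and 6 reads, each from a single line. Its fitted log2 fold change in pXEN against XEN went the other way (0.16), so no direction can be read for it. Vim, a gene that fibroblasts express strongly, stood at 625 ± 337 CPM in XEN and 432 ± 216 in pXEN. Cdh2 stood at 4.41 ± 1.30 CPM in ES (n = 2) and 4.02 ± 1.58 in XEN (n = 3). The pXEN line with the most Cdh11, pXEN6, also had the highest defining marker sum of its group (7.73 CPM, against 3.28 in pXEN2 and 3.41 in pXEN4). That sum was 27 reads in 2 of the 8 markers. On the full list pXEN6 had counts in 8 of the 21 markers, against 3 and 4, but its sum (13.5 CPM) lay below that of pXEN4 (15.6). The Cdh11 level of pXEN6 (12.9 CPM) was above that of every XEN line, and the part of fibroblast RNA in it was not tested.

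CPM per kilobase of exon allows genes to be compared roughly. The length joins all annotated exons of a gene and can exceed that of the transcript present, so the order of genes with near levels is uncertain. On this scale Vim led in pXEN (91.1 ± 45.5), followed by Epcam (19.3 ± 12.0), Snai1 (6.92 ± 0.383) and Zeb1 (2.01 ± 0.834). The order of these 4 was the same in XEN, at 132 ± 71.0, 16.8 ± 10.3, 3.21 ± 0.741 and 2.54 ± 0.802, where Snai1 and Zeb1 did not differ beyond their spread. Zeb2 and Cdh11 followed in XEN at 1.27 ± 0.314 and 1.14 ± 0.0457, also within their spread. In ES the order was Epcam (30.4 ± 4.88), Vim (24.5 ± 0.214), Cdh1 (8.28 ± 2.83), Cdh3 (2.78 ± 0.427) and Zeb1 (1.46 ± 0.934), and Snai1 stood at 0.493 ± 0.0187. Of the 4 cadherins among these genes, Cdh1 thus led in ES, Cdh11 led in XEN, and in pXEN none averaged above the 0.549 ± 0.777 CPM per kilobase of Cdh11.

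Within the pXEN group, pXEN4 was the highest or lowest line in several of the 10 genes. It had the highest Epcam (71.8 CPM), all the Cdh1 reads, and the lowest Vim (187) and Zeb1 (12.8), while Snai1 was level with the other lines. Any 1 of 3 lines is often highest or lowest, and the share over all genes was not counted. Its library had the fewest gene counts of the group (2894415) and the lowest share of Rn45s (20.7%, against 40.0% in pXEN2 and 27.5% in pXEN6). The part of these in its values was not tested. The pluripotency gene Pou5f1 was also highest in pXEN4, at 38.9 CPM against 10.8 and 18.6. Of 8 pluripotency markers, 3 had counts in pXEN4, 3 in pXEN2 and 4 in pXEN6, and Sox2, Esrrb and Tdgf1 had 0 reads in all 3 lines. Epithelial genes chosen after their values were seen went both ways. The splicing regulator Esrp1 stood at 14.5 CPM in pXEN4 against 0.656 in pXEN2 and 0 in pXEN6, the desmosomal cadherin Dsg2 at 60.5 against 6.56 and 0, and the membrane protease Prss8 at 48.0 against 9.19 and 11.2. Grhl2, an epithelial transcription factor, was instead lowest in pXEN4, at 0.284 CPM against 9.19 and 15.5. Without pXEN4 the log2 fold changes against XEN of Epcam and Cdh1 turned to -0.41 and -3.79, neither of them called. In XEN, XEN2 had the lowest Epcam and Vim and the highest Zeb2 and Snai2.

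Partners of the cadherins at adherens junctions changed in both directions. Of 20 tested, pXEN had 3 higher and 5 lower than ES (median log2 fold change -0.36, all genes -0.028), and XEN had 4 higher and 3 lower (0.0038, all genes 0.0015). These 8 and 7 of 20 lie near the 35.9% and 38.4% of all genes called, which, with the 4.55% in pXEN against XEN, are the background of each list that follows. Ctnnb1, which encodes beta-catenin, the link between cadherin and actin-bound alpha-catenin, stood at 646 ± 62.4 CPM in pXEN lines, 634 ± 15.7 in XEN lines and 616 ± 36.9 in ES lines and was not called (adjusted p = 0.801 and 0.876; chosen after its values were seen). Plekha7, which tethers microtubules to E-cadherin junctions, fell from 80.0 ± 3.46 CPM in ES to 4.19 ± 3.53 in pXEN (18.7-fold, adjusted p = 0.000104) and 19.7 ± 4.32 in XEN (4.04-fold, adjusted p = 0.00455). The nectin Pvrl2, a cadherin-independent adhesion protein, rose 3.39-fold in pXEN (adjusted p = 0.000723), and its binding partner inside the cell Mllt4 (afadin) rose 2.67-fold (adjusted p = 0.00106). In pXEN against XEN, 1 was higher and 2 lower of the 20: the nectin Pvrl1 was 5.17-fold higher (adjusted p = 0.00886), Plekha7 4.64-fold lower (adjusted p = 0.0199) and the actin linker Vcl 2.02-fold lower (adjusted p = 0.0416).

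Other cadherins gave 3 tested genes, of which 1 was higher and 1 lower in each comparison with ES. Cdh5, the cadherin of endothelium (VE-cadherin), stood at 83.7, 371 and 207 CPM in pXEN2, pXEN4 and pXEN6, 85.9, 11.1 and 80.4 in XEN1, XEN2 and XEN5, and 1 read in ES. It rose against ES in pXEN (adjusted p = 0.00476) and XEN (adjusted p = 0.013), and pXEN and XEN overlapped (adjusted p = 0.322). Between pXEN and XEN 0 of the 3 were called by edgeR or DESeq2, with 1 at an unadjusted p under 0.05. Among 5 desmosome genes, pXEN had 0 higher and 1 lower than ES, and XEN had 1 of each. Pkp2, a plakophilin of the desmosome plaque, was 3.23-fold lower in pXEN than in XEN (adjusted p = 0.00634), and Perp, a desmosome membrane protein, was also lower (3 pXEN reads, adjusted p = 0.0198).

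Of 10 other EMT transcription factors tested, pXEN had 2 higher and 3 lower than ES (median log2 fold change -0.32, all genes -0.028), and XEN had 4 higher and 0 lower (0.83, all genes 0.0015). Foxq1, a forkhead repressor of Cdh1, rose in both, from 1 ES read to 55.5 ± 34.8 CPM in pXEN (adjusted p = 0.000472) and 111 ± 50.2 in XEN (adjusted p = 0.000236). Prrx1, a homeobox factor of mesenchyme that is also on the fibroblast list, stood at 14.0, 24.1 and 30.6 CPM in XEN1, XEN2 and XEN5 and at 0 in all other mouse lines. Prrx1, Prrx2 and Sox4 were the 3 of 10 that were lower in pXEN than in XEN (adjusted p = 0.000833, 0.00857 and 0.018), and 0 were higher. Prrx1 had passed the filter on low counts through XEN alone.

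Cofactors and regulators of Snail and Zeb proteins, with Gsk3b, Fbxl14, Csnk1a1 and Usp9x among the regulators, gave 2 higher and 6 lower of 12 in each comparison with ES (median log2 fold change -0.65 in pXEN and -0.75 in XEN). Kdm1a, the histone demethylase LSD1 that Snai1 recruits, was 2.89-fold lower in pXEN (adjusted p = 0.000359) and 2.53-fold lower in XEN (adjusted p = 0.00084). Its partner Rcor1 (CoREST) was 4.06-fold and 3.34-fold higher (adjusted p = 0.000315 and 0.000799). Hdac1, a histone deacetylase, was 4.15-fold and 4.75-fold lower (adjusted p = 0.000478 and 0.000316), and Ctbp2, a Zeb corepressor, 2.77-fold and 3.25-fold lower (adjusted p = 0.00119 and 0.000552). Between pXEN and XEN 0 of the 12 were called by edgeR or DESeq2, and 0 had an unadjusted p under 0.05.

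Epithelial genes moved in both directions. Of 9 regulators tested, pXEN had 2 higher and 0 lower than ES, and XEN 2 higher and 2 lower. The splicing regulator Esrp2 rose 3.04-fold and 2.72-fold (adjusted p = 0.0219 and 0.0337), and Klf4 1.92-fold and 3.38-fold (adjusted p = 0.0384 and 0.00179). Of 7 surface genes, pXEN had 1 higher and 1 lower, and XEN 1 higher and 2 lower. The tight junction protein Cldn4 fell from 88.0 ± 33.4 CPM in ES to 0 reads in pXEN and 5 in XEN (adjusted p = 0.000565 and 0.000895), whereas Lsr, which builds tricellular junctions, rose 15.1-fold and 14.1-fold (adjusted p = 2.19e-05 and 2.87e-05). Between pXEN and XEN, 1 of the 9 regulators, Tfap2a, was higher (adjusted p = 0.0303) and 0 were lower. Of the 7 surface genes 0 were called by edgeR, with 1 at an unadjusted p under 0.05, and 1 was called by DESeq2.

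Krt8 and Krt18 rose beside Vim in both endoderm groups. Of 8 tested intermediate filament genes, 4 were higher and 1 lower in each comparison with ES (median log2 fold change 1.74 in pXEN and 0.50 in XEN). Krt8 rose from 14.3 ± 4.54 CPM in ES to 485 ± 11.0 in pXEN (33.8-fold, adjusted p = 4.45e-06) and 667 ± 208 in XEN (46.5-fold, adjusted p = 2.85e-06). Its partner Krt18 rose 13.5-fold and 30.6-fold (adjusted p = 0.000436 and 0.000115). Krt19, a keratin of simple epithelia, averaged 2.12 CPM in XEN and 2.97 in ES, a difference that was not called (adjusted p = 0.601). It was 29.0-fold higher in pXEN than in XEN, at 69.6, 88.0 and 34.9 CPM against 1.55, 1.39 and 3.43 (adjusted p = 0.000245), and was the 1 of 8 called between these groups.

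Mesenchymal matrix and adhesion genes separated pXEN from XEN. Of 13 tested, 0 were higher and 6 lower in pXEN (median log2 fold change -2.97, all genes 0). Fn1, the matrix protein fibronectin, stood at 0.641 ± 0.877 CPM in pXEN against 185 ± 42.6 in XEN and 133 ± 17.5 in ES, and was lower than in either (adjusted p = 2.38e-05 and 6.05e-06). Tagln, an actin-binding protein of smooth muscle, was 17.4-fold lower in pXEN than in XEN (adjusted p = 1.37e-05) and 3.02-fold higher in pXEN than in ES (adjusted p = 0.00511). In XEN against ES, 8 of 13 were higher and 1 lower, and in pXEN against ES 4 and 4. The summed fibroblast markers given above differed between the groups in the same direction, and their part in these counts was not tested.

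Genes of TGF-beta and PTH signalling, the inhibitors Smad7, Ski and Skil included, gave 5 higher and 3 lower of 11 in pXEN than in ES (median log2 fold change 0.02), and 6 higher and 0 lower in XEN (0.91). Pth1r, the receptor of parathyroid hormone-related peptide, stood at 362, 570 and 420 CPM in pXEN2, pXEN4 and pXEN6, 371, 289 and 279 in XEN1, XEN2 and XEN5, and 1.64 and 0 in ES2 and ES3. Both endoderm groups lay far above ES (536-fold and 372-fold, adjusted p = 4.45e-06 and 4.76e-06) and overlapped each other. The TGF-beta receptor Tgfbr2 rose 41.3-fold in pXEN and 18.5-fold in XEN (adjusted p = 0.00169 and 0.00676). Pth1r and Tgfbr2 each had only 4 reads in ES, so the sizes of these folds are uncertain. Between pXEN and XEN, 0 were higher and 4 lower: the ligand genes Tgfb2 and Tgfb3 and the pathway inhibitors Smad7 and Skil, of which Smad7 was 2.83-fold lower (adjusted p = 0.013) and Skil 3.47-fold lower (adjusted p = 0.0431). The 5 rows of the miR-200 family, microRNAs that repress Zeb1 and Zeb2, had 0 counts in all pXEN and XEN lines. They had only 2 reads in ES2 and 1 in ES3 and were not tested. With so few reads in any line, these rows cannot show whether the microRNAs differed between groups.

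The genes most alike in level pattern were found over the 8 mouse lines, as the smallest root mean square difference of centred log2 CPM among 7565 genes. For Snai1 they were Wars (0.17), Kdelc2 (0.20), Nagk (0.24), Meis3 (0.26) and Trip11 (0.27), and for Cdh1 Tet2 (0.54), Epb4.1l4a (0.68), Hspb1 (0.73), Tet1 (0.79) and Slc38a4 (0.83). Wars, a tryptophanyl-tRNA synthetase, averaged 447 ± 26.7 CPM over pXEN lines, 246 ± 56.8 over XEN lines and 49.4 ± 2.64 over ES lines, the same order of groups as Snai1. Tet2, a methylcytosine oxidase, was 5.25 ± 3.81, 7.25 ± 5.56 and 121 ± 10.4. Nearest to Cdh2 were Lrp1 (0.43), Dusp1 (0.43), Hist1h3d (0.46), Klf9 (0.50) and Fgd4 (0.56), and nearest to Cdh11 Ehd2 (0.57), Serpine2 (0.58), Ddx26b (0.72), Msrb3 (0.76) and Rnf217 (0.76). The lists of Cdh1 and Cdh2 depended more on the prior count, with 2 and 3 of 5 genes shared at a prior of 0.5, against 4 of 5 each for Snai1 and Cdh11. The part of low counts in this was not tested.

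**Figure D4:**
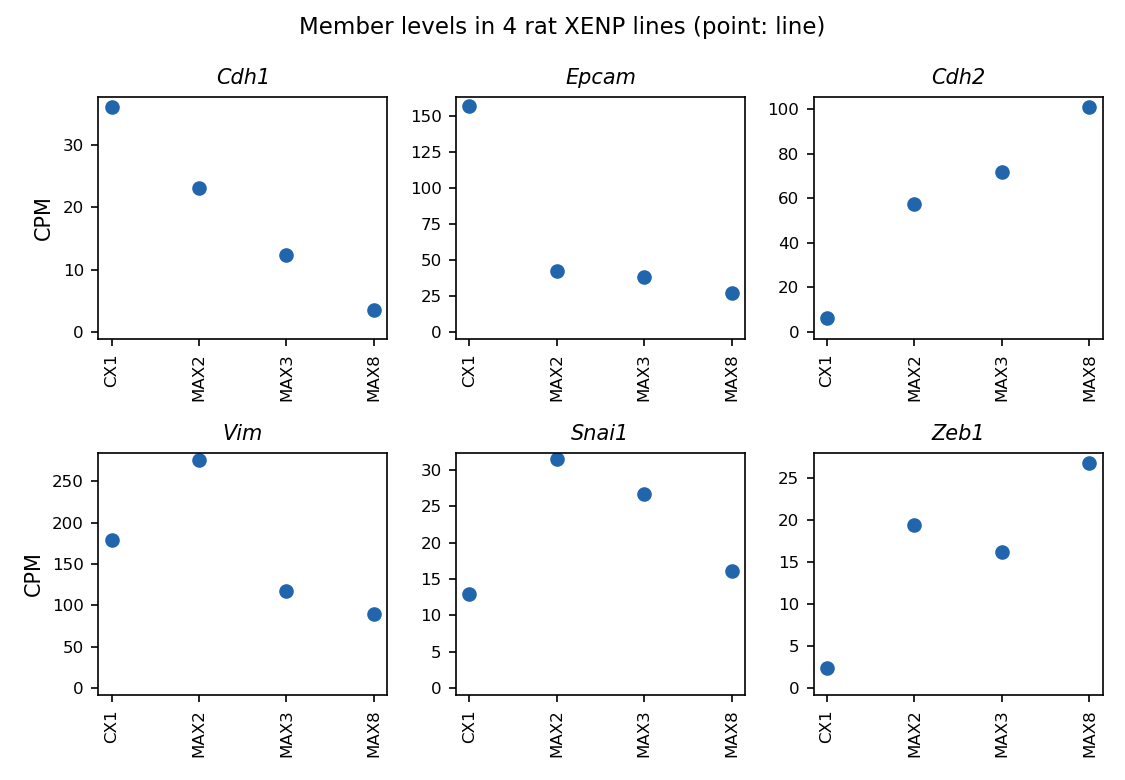
Levels of 6 genes in the 4 rat XENP lines, in CPM of all gene counts on linear axes that start near 0 and differ between panels. Each point is a line. CX1 is highest in Cdh1 and Epcam and lowest in Cdh2, Snai1 and Zeb1, and lies between MAX lines in Vim.

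In the rat XENP lines, CX1 carried more Cdh1 and Epcam and less Cdh2, Snai1 and Zeb1 than each of the 3 MAX lines. Cdh1 read 36.2 CPM in CX1 and 23.1, 12.4 and 3.57 in MAX2, MAX3 and MAX8, and Epcam 157 against 42.5, 38.2 and 26.8. CX1 was 2.78 times the MAX mean for Cdh1 and 4.38 times for Epcam. Cdh2 ran the other way, at 6.44 CPM in CX1 and 57.3, 71.6 and 101 in the MAX lines, whose mean was 11.9 times higher. The repressor Snai1 (12.9 against 31.4, 26.7 and 16.1 CPM) was likewise lowest in CX1, with a MAX mean 1.92 times higher. Zeb1 read 2.41 CPM in CX1, on 3 reads, against 19.4, 16.2 and 26.8, and the ratio of MAX to CX1 counts per gene count was 8.67 with an exact 95% interval of 2.84 to 43.1. Vim overlapped, at 179 CPM in CX1 and 275, 117 and 89.3 in the MAX lines. Of the 6 genes with at least 10 counts, 2 were highest and 3 lowest in CX1, where 35.4% and 31.6% of 9188 rat genes were, so the counts alone do not set these genes apart from the background.

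With 1 line against 3, these rat values are a description with no test. CX1 was also the line of the highest passage, had the most gene counts (1242937) and the lowest share of multimapping reads (65.5%, against 67.9% to 70.1%), and the part of these in its values was not tested. Its Pou5f1 level was 163 CPM, against 8.32, 6.68 and 6.25 in the MAX lines. Of 6 pluripotency markers with a rat row, only 2 had counts in CX1, with a sum of 164 CPM that was nearly all Pou5f1. Cdh3, Cdh11 and Zeb2 had 0 counts in all 4 rat lines, which allows up to 0.668 CPM over the group, and Snai2 had 2 reads, both in MAX8. Of the 8 defining fibroblast markers 0 to 1 had a count in a rat line. The full list had counts in 3 to 6 of its 19 rat rows and summed to 443 to 1212 CPM, nearly all of it Mfap5, a microfibril protein (431 CPM in CX1 and 847, 818 and 1198 in MAX2, MAX3 and MAX8). Its part in the rat values was not tested.

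Rat genes of the other lists varied in where CX1 stood, beside the 35.4% above and 31.6% below over all rat genes (all examples were chosen after their values were seen). CX1 was above all MAX lines in 9 and below in 2 of 12 epithelial surface genes, above in 6 and below in 1 of 8 epithelial regulators, and above in all 4 desmosome genes. Spint1, an inhibitor of membrane proteases, read 163 CPM in CX1 and 18.7 to 67.5 in the MAX lines, and Ocln, a tight junction protein, 90.9 against 43.4 to 58.2. Foxq1 was 114 CPM against 5.73 to 16.6. Of 8 genes of TGF-beta and PTH signalling, CX1 was above the MAX lines in 1 and below in 6, among them Tgfbr2 (9.65 CPM against 65.9 to 96.4) and Pth1r (785 against 1455 to 1698). The remaining lists were mixed: CX1 was above all MAX lines in 3 and below in 8 of 15 adherens junction partners, and 3 and 4 of 11 cofactors and regulators of Snail and Zeb. The counts above and below were 3 and 2 of 9 mesenchymal genes, 2 and 3 of 7 intermediate filament genes, 2 and 0 of 6 other EMT transcription factors, and 0 and 1 of 3 other cadherins. For the 10 endoderm markers with a rat row they were 2 and 6. These markers summed to 20351 CPM in CX1 and to 35320, 39352 and 39780 in MAX2, MAX3 and MAX8.

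**Figure D5:**
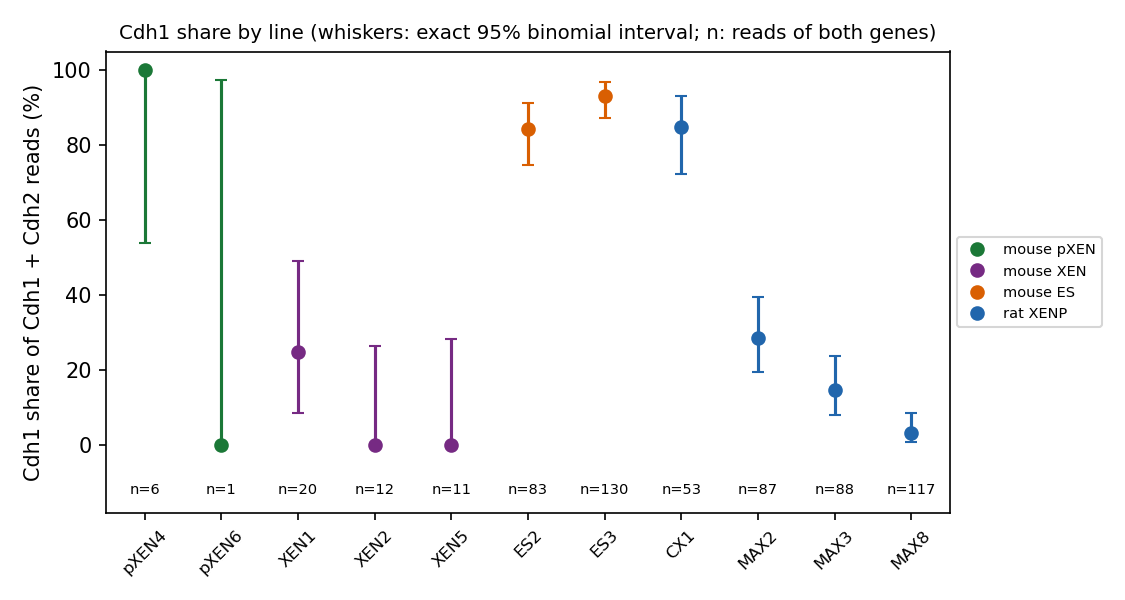
Cdh1 reads as a percentage of Cdh1 plus Cdh2 reads in each line that had such reads, with exact 95% binomial intervals and the number of reads (n) under each point. The mouse ES lines lie at 84.3% to 93.1% and the XEN lines at 0% to 25.0%. Rat CX1 lies at 84.9% and the MAX lines at 3.42% to 28.7%. The percentage compares lines within a species only.

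The balance of E-cadherin and N-cadherin reads needs no scaling between libraries. Cdh1 made up 84.3% of the reads of both genes in ES2 (exact 95% interval 74.7% to 91.4%) and 93.1% in ES3 (87.3% to 96.8%). In XEN1 it made up 25.0% (8.66% to 49.1%), and in XEN2 and XEN5 0%, with upper limits of 26.5% and 28.5%. The intervals of XEN and ES lines did not overlap. Among rat lines CX1 was at 84.9% (72.4% to 93.3%), MAX2 at 28.7% (19.5% to 39.4%), MAX3 at 14.8% (8.11% to 23.9%) and MAX8 at 3.42% (0.939% to 8.52%), so the CX1 interval lay above those of all MAX lines. In pXEN the balance could not be read: pXEN4 had 6 Cdh1 reads and 0 Cdh2 reads, pXEN6 had 1 Cdh2 read and pXEN2 had neither. Such intervals and floors hold for counting error alone, because PCR copies of a molecule are counted as separate reads. The gene lengths of Cdh1 and Cdh2 differ, and rat lengths were not at hand. The percentage therefore compares lines within a species, and neither the levels of the 2 cadherins nor rat lines with mouse lines.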

How the data were processed

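For each line the authors deposited a table of whole-number counts by gene, with unstranded, same-strand and reverse-strand columns, per the values in the files. CASAVA 1.8.2, Trimmomatic 0.33, STAR 2.5.1, DESeq2 and, as builds, mm10 and rn6 appear in the submitters' processing notes. The counting annotation was not given in the sources used here. From these tables the reverse-strand column was used, as it held 98.9% to 99.3% of stranded counts. Read-class rows, 73.4% to 78.3% of mouse and 89.7% to 91.8% of rat reads, were left out. Multimapping reads are among them (7.84% to 9.65% in mouse, 65.5% to 70.1% in rat), so levels of genes with near-identical copies are uncertain.

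All 8 mouse libraries were fitted together with edgeR 4.0.16 under R 4.3.3 (TMM, filterByExpr by group with a minimum count of 10, robust glmQLFit, glmQLFTest). P-values were adjusted by Benjamini-Hochberg over 10895 genes, with a threshold of 0.05, and standard errors are the absolute log2 fold change over the square root of F. The fit was tested on simulated data. A group at 0 counts gives a fold against 3 counts over the group, which leaves out counting error in the other group. A group at 1 to 3 counts gives a ratio with its exact 95% interval. Rat lines were described only. Coordinates are those of GENCODE vM21 (GRCm38).

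The members and gene lists were chosen with earlier results of these data known. Named genes are all members, up to 4 called genes per list and comparison with at least 10 CPM, by absolute fold change, up to 2 with the smallest p where none was called, and the 5 most alike genes for Cdh1, Cdh2, Snai1 and Cdh11. Genes named beyond this were chosen after their values were seen: Ctnnb1, Grhl2 by line, the genes described for pXEN4 and rat lines, and Prrx2, Sox4, Tgfb2 and other genes named to complete a count. The promoter window was set to the 250 bases before the start after its matches were seen. Alternatives were DESeq2 1.42.0, other scalings and filters, unstranded counts, Rn45s left out, sex as a term, only the compared groups, each line left out, and, added after the data were seen, a robust dispersion estimate.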

Additional observations from a re-analysis of the deposited data

Results flagged for a closer look

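Of 8 sets of 4 rat values checked, Epcam held a line that stood apart from the other 3 by Dixon's gap ratio, which chance gives in about 1 in 20 sets, at 157 CPM in CX1. Rat Snai2 was also singled out, at 1.79 CPM in MAX8, but with 0 reads in the other 3 lines the ratio is at its maximum for any read count, and the value rests on 2 reads, so that mark carries no weight. Outside the strand column used, Epcam had 4 same-strand reads in pXEN6.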

How the results depend on the processing

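No paired analysis was possible because any pair of mouse groups shares only line number 2. Besides the lines left out, 250 of 259 member fold changes kept their direction and side of the threshold, as did 124 of 144 with a line left out. The lost and gained calls stand beside Cdh1, Vim and Cdh11 in the report. Directions turned for values that were not called: Cdh1 in pXEN against XEN with DESeq2 (-0.13), with sex as a term (-0.40) and without pXEN4 (-3.79), XEN2 (-0.46) or XEN5 (-0.50), Epcam there without pXEN4 (-0.41) or XEN2 (-0.22), Cdh2 in XEN against ES without XEN5 (0.038) or ES2 (0.18), and Zeb1 in pXEN against ES without ES2 (-0.069). The cause was not tested. With a line left out, these ran from -3.79 to 4.01 for Cdh1, -0.41 to 0.63 for Epcam, -0.49 to 0.18 for Cdh2 and -0.069 to 1.33 for Zeb1. With a minimum count of 30, fewer genes were tested, 1 member was called in pXEN against XEN and 3 in pXEN against ES, and pXEN had 65 genes higher and 205 lower than XEN, where all genes tested gave 100 and 396. DESeq2 called 155 higher. With a line left out, pXEN against XEN gave 63 to 86 higher and 255 to 362 lower genes and 2 to 3 members, pXEN against ES 1168 to 1818, 1358 to 1761 and 4 to 6, and XEN against ES 1277 to 2158, 1197 to 1834 and 4 to 6. Leaving out an ES line leaves 1 ES sample, assumed to vary like the other groups. Upper-quartile scaling moved the median log2 fold change of all genes to -0.13 in pXEN and -0.11 in XEN against ES. With a prior count of 0.5, 2 of the 5 genes most like Cdh1 and 3 of those most like Cdh2 were shared. The robust dispersion estimate changed no call of the 9 members. Counts of 0 to 10 reads in a line limit Cdh1, Cdh2, Cdh3, Cdh11, Snai1, Snai2 and Zeb2 in the lower groups.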
